A study of Mus musculus with 4 samples.

Results

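Histone chaperones are proteins that carry newly made or evicted histones and hand them to DNA, and the 10 genes described here encode chaperones of both the replication-coupled and the replication-independent routes. The members were taken by name from the table of 32230 gene symbols: Asf1a, Asf1b, Chaf1a, Chaf1b, Nasp, Hirip3, Hira, Daxx, Atrx and Ssrp1. All 10 had a row and all 10 passed the filter, a 4-library mean of 1 TPM or more. TPM is a relative abundance that scales read numbers for gene length and for library size, so levels of different genes can be set side by side.

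The cells were mouse embryonic fibroblasts from male homozygous 4F2A embryos at mid-gestation, and both groups carried the same doxycycline-inducible cassette of 4 reprogramming factors, Oct4, Sox2, Klf4 and Myc. The treated group received CX-5461, an inhibitor of RNA polymerase I, and the control group received DMSO, the vehicle, in both cases on day 0 and for 1 h only. Both groups were kept in 2 µg/mL doxycycline for 48 h, and polyadenylated RNA was collected on day 2. Each group had 2 libraries, numbered 2 and 3, described as parallel replicates. Nothing says that these came from separate cultures, and the p-values cover the spread between libraries alone, which may be technical. The labels give neither the dose of CX-5461 nor the number of embryos.

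During S phase, new H3-H4 dimers are bound by NASP and ASF1, and ASF1 passes them to chromatin assembly factor 1 (CAF-1), which PCNA holds at the replication fork. Outside replication, the variant H3.3 is placed into chromatin by the HIRA complex, largely at active genes, and by DAXX with the remodeller ATRX at telomeres and other repeats. FACT, a dimer of SSRP1 and SPT16, handles H2A-H2B during both transcription and replication.

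Of the 10 chaperone genes, 6 were lower with CX-5461 and 0 were higher, at a limma adjusted p under 0.05 over all genes tested. Without CX-5461 replicate 3 fewer of the 10 were called lower, and fewer of all genes tested were as well. In a simulated set of counts of this design, the share of false calls by the same fit was above the threshold. That simulation gave both groups the same spread, unlike these libraries, so the share in these data is not known. Across all 14621 genes tested, 19.8% passed by the same rule, 8.21% lower and 11.6% higher. The falls covered genes of the replication-coupled route (Asf1b, Chaf1b, Nasp, Chaf1a), Hirip3 and Ssrp1. The H3.3 genes Hira, Daxx and Atrx did not pass, and neither did Asf1a. Of the 10, 4 fell by at least 1 on the log2(TPM + 1) scale, against 3.09% of all genes tested. In 8 of the 10, both CX-5461 libraries lay below both DMSO libraries, as they did in 26.3% of genes tested. In 1, Daxx, both lay above, as in 38.2% of genes tested. The median log2 difference was -0.66 over the 10 genes and 0.07 over all genes tested. These counts are a description of a list whose members were named with results of these data known.

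**Figure D1:**
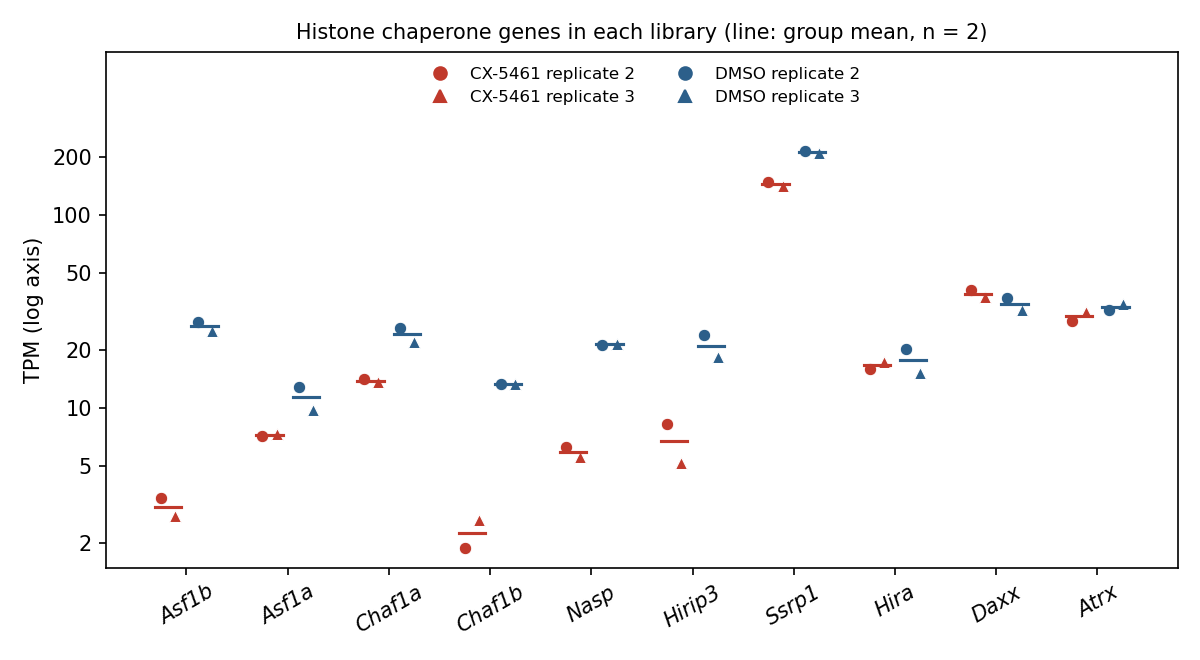
TPM of the 10 histone chaperone genes on a log axis, with 1 point per library, CX-5461 left of DMSO for each gene and a line at the mean of 2 libraries. Asf1b, Chaf1b and Nasp show the widest gaps between groups, while the points of Hira overlap.

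Several measures of the cultures moved with these falls. Proliferation markers were lower with CX-5461 in 10 of 10 genes, and their summed level was 112 to 113 TPM in CX-5461 libraries and 658 to 724 TPM in DMSO libraries. Mki67, the proliferation marker Ki-67, averaged 1.67 ± 0.118 TPM with CX-5461 and 91.3 ± 9.47 TPM with DMSO (SD, n = 2 each). Leukocyte markers, of which 2 of 4 tested were higher, summed to 835 to 931 TPM with CX-5461 and 572 to 574 TPM with DMSO, most of it Lyz2. The 2 were Lyz2 (0.65, limma adjusted p = 0.00677) and Adgre1 (0.90, adjusted p = 0.0137). Adgre1 had 10.4 and 8.98 TPM with CX-5461 and 4.48 and 4.99 TPM with DMSO. Cd68 averaged 44.9 TPM with CX-5461 and 39.1 TPM with DMSO, and Csf1r 12.3 and 10.6 TPM, without passing. Ptprc, which defines leukocytes, stood at 0.958 and 1.27 TPM with CX-5461 and 1.02 and 0.656 TPM with DMSO. Fibroblast markers, the labelled cell type, were all detected, and 5 of 10 were lower with CX-5461, with summed levels of 8520 to 8790 TPM against 9890 to 12100 TPM with DMSO. Endothelial markers, of which 2 of 5 were tested, summed to 57.2 to 58.3 TPM with CX-5461 and 50.6 to 51.0 TPM with DMSO: Kdr, a VEGF receptor, rose (1.78, adjusted p = 0.000729) and Tek, the angiopoietin receptor, fell (-0.39, adjusted p = 0.0299), while Pecam1 stood at 0.0626 and 0 TPM with CX-5461 and 0.0937 and 0.0694 TPM with DMSO. Skeletal muscle markers, of which 2 of 5 were tested, summed to 49.2 to 56.2 TPM with CX-5461 and 74.7 to 77.5 TPM with DMSO: Des, desmin, rose (0.57, adjusted p = 0.0229) and Acta1, an actin of skeletal muscle, fell (-1.45, adjusted p = 0.00586), while Myod1 and Myog were listed at 0 in all 4 libraries. None of the 3 neural and 2 keratinocyte markers tested passed, and no pluripotent marker reached the filter. The part of these differences in the chaperone results was not tested. In bulk RNA, fewer cells that express a gene and less RNA per cell cannot be told apart. DMSO replicate 3 stood apart in its mitochondrially encoded share of TPM, which was 15.3%, against 9.20% to 9.96% in the other libraries. The TPM values and exon lengths gave back 36.0M to 36.3M reads in the CX-5461 libraries and 36.3M to 39.1M reads in the DMSO libraries.

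ASF1, the H3-H4 chaperone that delivers histones to both CAF-1 and HIRA, is encoded by a pair of paralogs. Asf1b (chromosome 8, 83955507 to 83970197, mm10) is the paralog tied to proliferating cells. It stood at 3.42 and 2.76 TPM in the CX-5461 libraries and at 28.0 and 25.0 TPM in the DMSO libraries. The groups lay far apart, and the CX-5461 mean was 11.7% of the DMSO mean. The log2 difference was -2.75 (SE 0.147, adjusted p = 0.000476), the largest fall among the 10 genes, and 0.554% of genes tested had a lower difference. The depth behind it was 82 and 65 reads with CX-5461, against 672 and 675 reads with DMSO.

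Asf1a (chromosome 10, 53596757 to 53609225), which also works with HIRA outside S phase, had 7.16 and 7.35 TPM with CX-5461 and 12.9 and 9.84 TPM with DMSO. Both CX-5461 values were below both DMSO values, but the DMSO pair was spread widely. The log2 difference of -0.57 (95% interval -0.97 to -0.17) did not pass over all genes tested (adjusted p = 0.0604), and it did pass under 5 of the 14 other settings, among them median-of-ratios scaling (adjusted p = 0.0275). In the annotation, 48.1% of the exon bases of Asf1a are also exon of Mcm9 on the opposite strand, and the labels do not state whether counting used strand. Mcm9, a relative of the replicative helicase subunits, averaged 3.41 ± 0.208 TPM with CX-5461 and 4.83 ± 0.167 TPM with DMSO (SD, n = 2 each), and without strand, reads of Mcm9 and Asf1a cannot be told apart in the shared exons.

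The order of the paralogs was opposite in the groups. The ratio of Asf1b to Asf1a was 0.477 and 0.375 in the CX-5461 libraries and 2.17 and 2.54 in the DMSO libraries. By these values Asf1a was the more abundant paralog, per length, in both CX-5461 libraries and Asf1b in both DMSO libraries. The part of the exons shared by Asf1a and Mcm9 in this order was not tested. The log2 ratio differed by -2.47 between groups, and the exact two-sided permutation p was 0.333, the smallest that 2 against 2 libraries can give.

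The promoters of this pair are shown because the order of the paralogs differed between the groups. Each line gives the 250 bases before the RefSeq transcription start (GRCm38.p6), 5′ to 3′ on the strand of the gene, with capitals at matches, on either strand, to the CCAAT box (CCAAT), to the CHR element of cell cycle genes (TTNGAA with T or C at N) or to the E2F core (TTNNCGC with G or C at each N). These words were chosen from textbook elements after the promoter sequences had been seen. The windows lie at chr8:83955444-83955693 for Asf1b and chr10:53596711-53596960 for Asf1a, both on the plus strand. GENCODE places the gene starts further upstream, at 83955507 for Asf1b and 53596757 for Asf1a. By that annotation most of each window lies inside the gene, with the CHR word and the Asf1a CCAAT box. The Asf1b CCAAT boxes also lie inside the gene, except the one that begins at -200.
Asf1b: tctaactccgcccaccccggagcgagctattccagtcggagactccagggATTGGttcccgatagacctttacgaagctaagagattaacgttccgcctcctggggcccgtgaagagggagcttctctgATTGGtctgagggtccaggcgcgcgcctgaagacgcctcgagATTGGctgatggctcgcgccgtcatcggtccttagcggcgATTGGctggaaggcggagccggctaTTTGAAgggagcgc
Asf1a: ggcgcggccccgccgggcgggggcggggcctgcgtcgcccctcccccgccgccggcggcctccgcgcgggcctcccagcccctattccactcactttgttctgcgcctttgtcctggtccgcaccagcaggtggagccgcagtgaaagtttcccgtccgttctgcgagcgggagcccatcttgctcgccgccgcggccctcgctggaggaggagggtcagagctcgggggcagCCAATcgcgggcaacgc
The Asf1b window held 4 CCAAT boxes, all in the reverse orientation, and 1 CHR word that begins at -14 from the start. The Asf1a window held 1 CCAAT box, at -17, and no CHR word. No match to one element overlapped a match to another in these windows. Among 32851 RefSeq promoter windows of this length, 0.84% held at least 4 CCAAT boxes and 33.9% at least 1, while 17.2% held a CHR word. A match is a description of the letters, not of binding.

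CAF-1, the complex that deposits H3-H4 behind the replication fork, is represented by its large subunits. Chaf1b (chromosome 16, 93883901 to 93906115), the p60 subunit, had 1.89 and 2.63 TPM with CX-5461 and 13.3 TPM in each DMSO library. The DMSO mean was 5.87 times the CX-5461 mean, with a log2 difference of -2.14 (SE 0.171, adjusted p = 0.00157). The read numbers were 91 and 124 with CX-5461 and 640 and 718 with DMSO. Chaf1a (chromosome 17, 56040439 to 56072289), the p150 subunit that binds PCNA, had 14.1 and 13.6 TPM with CX-5461 and 26.1 and 22.1 TPM with DMSO. It fell to 57.4% of the DMSO mean, a log2 difference of -0.75 (SE 0.121, adjusted p = 0.0117), and this call ended without CX-5461 replicate 2 (adjusted p = 0.087) and without CX-5461 replicate 3 (0.113).

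The ratio of the CAF-1 subunits differed between the libraries of the groups. Chaf1a stood at 7.44 and 5.19 times the TPM of Chaf1b in the CX-5461 libraries and at 1.97 and 1.67 times in the DMSO libraries (exact two-sided permutation p = 0.333, the smallest possible). Beside this stands an overlap: 52.5% of the exon bases of Chaf1a are also exon of Ubxn6 on the opposite strand. Ubxn6, a cofactor of the ATPase p97, averaged 24.8 ± 0.688 TPM with CX-5461 and 20.1 ± 0.681 TPM with DMSO (SD, n = 2 each). Without strand, reads of Ubxn6 and Chaf1a cannot be told apart in the shared exons, and the part of this overlap in the Chaf1a level was not tested. Chaf1b shared no exon base with another annotated gene.

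The Chaf1a promoter is shown as the only promoter among the 10 genes with more than 1 match to the E2F core. It is the plus strand window chr17:56040166-56040415, with capitals as above.
Chaf1a: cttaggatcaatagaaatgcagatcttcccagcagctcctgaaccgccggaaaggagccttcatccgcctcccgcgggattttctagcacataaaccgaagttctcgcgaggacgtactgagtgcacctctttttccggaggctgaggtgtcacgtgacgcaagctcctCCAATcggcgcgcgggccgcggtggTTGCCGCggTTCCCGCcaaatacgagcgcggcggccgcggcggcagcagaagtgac
The E2F words begin at -56 and -47, and a CCAAT box at -81. In the Chaf1b window, 1 E2F word lay at -227 and no CCAAT box was found. Of all windows, 7.89% held at least 1 E2F word and 0.78% at least 2. Over the other members, the Nasp window held 1 CHR word and 2 CCAAT boxes, the Atrx window 3 CCAAT boxes, and the Hira and Hirip3 windows none of these words. Ssrp1 has 2 listed starts, both with a CHR word and the downstream one with an E2F word, and of the 3 listed starts of Daxx only the first had a CCAAT box. A CCAAT box occurred among genes that fell (Asf1b, Chaf1a and Nasp) and among genes that did not pass (Asf1a, Atrx and Daxx).

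**Figure D2:**
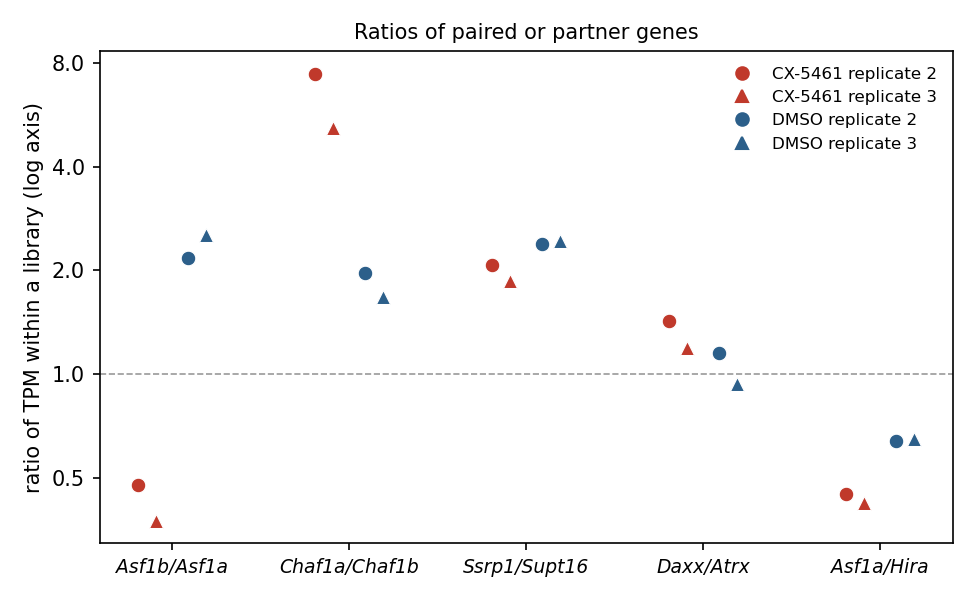
Ratios of TPM within each library, on a log axis, for paired or partner genes, CX-5461 left of DMSO, with 1 point per library and a dashed line at 1. Asf1b/Asf1a crosses 1 between the groups, and Chaf1a/Chaf1b is 5.19 to 7.44 with CX-5461 and 1.67 to 1.97 with DMSO.

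Upstream of CAF-1, Nasp (chromosome 4, 116601052 to 116627941) encodes the chaperone that keeps a soluble reserve of H3-H4. Its level was 6.27 and 5.59 TPM with CX-5461 and 21.3 and 21.5 TPM with DMSO. The libraries of each group lay close together, and the CX-5461 mean was 27.7% of the DMSO mean (log2 difference -1.69, SE 0.121, adjusted p = 0.00109). It has a processed pseudogene, Nasp-ps1, on chromosome 6, whose level is not given here. Hirip3 (chromosome 7, 126861972 to 126865377), named for its binding to HIRA and described as an H2A-H2B chaperone, had 8.31 and 5.21 TPM with CX-5461 and 23.8 and 18.3 TPM with DMSO. It had the widest relative spread of the 6 genes that fell, and its log2 difference of -1.52 (SE 0.235, adjusted p = 0.0114) missed the threshold without CX-5461 replicate 3 (adjusted p = 0.062) or without DMSO replicate 2 (0.0503). Although both HIRIP3 and HIRA bear the name, Hirip3 fell while Hira did not pass.

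Ssrp1 (chromosome 2, 85037234 to 85047109), the HMG-box subunit of FACT, was the most abundant of the 10 genes in both groups. It had 148 and 141 TPM with CX-5461 and 214 and 209 TPM with DMSO, a fall to 68.4% of the DMSO mean (log2 difference -0.54, SE 0.0801, adjusted p = 0.00889). The spread within each group was small beside the gap. The log2 difference was -0.58 without CX-5461 replicate 2 and -0.51 without CX-5461 replicate 3, yet the call ended in both. In those fits the spread of Ssrp1 itself comes from the DMSO pair alone, before the empirical Bayes step of limma moderates it. Its partner Supt16, which encodes SPT16, had 71.4 and 75.8 TPM with CX-5461 and 89.8 and 85.5 TPM with DMSO. The groups did not overlap, but the log2 difference of -0.25 (95% interval -0.46 to -0.04) did not pass (adjusted p = 0.0954). The ratio of Ssrp1 to Supt16 was 2.08 and 1.86 with CX-5461 and 2.38 and 2.44 with DMSO (exact two-sided permutation p = 0.333, the smallest possible).

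Hira, Daxx and Atrx, which act in H3.3 deposition, did not pass the test. Hira (chromosome 16, 18877037 to 18970309), the scaffold of its complex, had 15.9 and 17.4 TPM with CX-5461 and 20.2 and 15.2 TPM with DMSO. The CX-5461 values lay between the DMSO values, and the log2 difference was -0.07 (95% interval -0.46 to 0.32, adjusted p = 0.781), or 0.12 without DMSO replicate 2. Daxx (chromosome 17, 33909414 to 33915590), the H3.3-specific chaperone, had 40.7 and 37.6 TPM with CX-5461 and 37.1 and 32.2 TPM with DMSO (log2 difference 0.17, 95% interval -0.10 to 0.44, adjusted p = 0.31). Atrx (chromosome X, 105797615 to 105929403), the remodeller that works with DAXX, had 28.4 and 31.5 TPM with CX-5461 and 32.3 and 34.4 TPM with DMSO (log2 difference -0.15, 95% interval -0.40 to 0.09, adjusted p = 0.329). All 3 intervals include 0, and none reaches a fall as large as that of Nasp or Hirip3. In the annotation, 44.7% of the exon bases of Hira also belong to Gm28539, a gene on the same strand. Gm28539 had no TPM value under that symbol. Daxx and Atrx share no exon base with another gene.

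**Figure D3:**
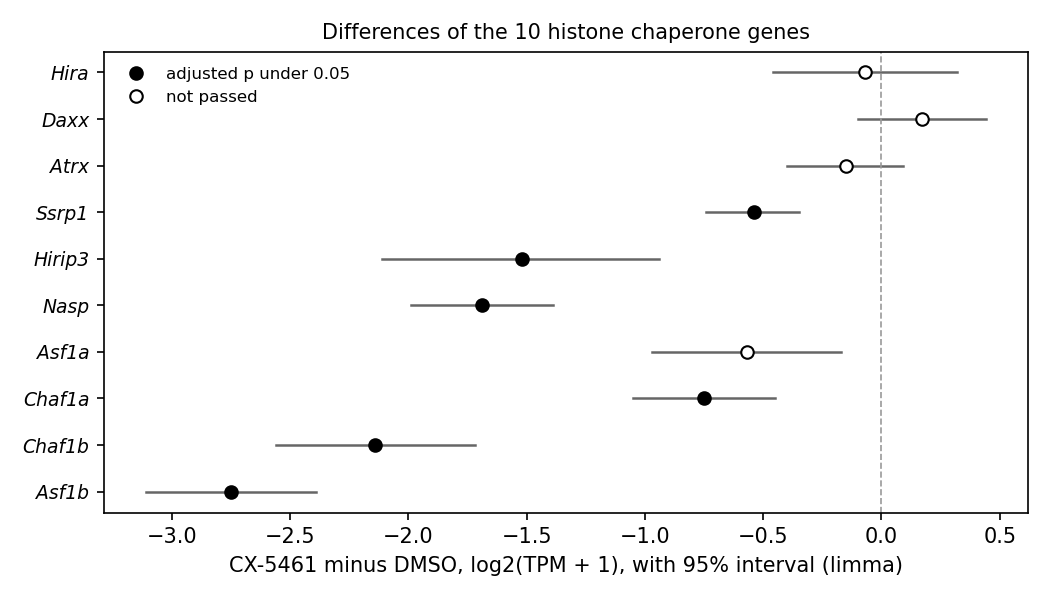
Log2(TPM + 1) differences, CX-5461 minus DMSO, for the 10 genes, with 95% intervals from limma, filled where the adjusted p was under 0.05. The intervals of Hira, Daxx and Atrx include 0, and those of Asf1b, Chaf1b, Nasp and Hirip3 end at or below -0.94.

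Ranked by level, the genes stood in a different order in the groups. With CX-5461 the means ran from Ssrp1 at 145 TPM through Daxx (39.1 TPM), Atrx (29.9 TPM), Hira (16.6 TPM), Chaf1a (13.9 TPM), Asf1a (7.26 TPM), Hirip3 (6.76 TPM), Nasp (5.93 TPM) and Asf1b (3.09 TPM) to Chaf1b at 2.26 TPM. Of these neighbours, Asf1a and Hirip3 overlapped in their library values, as did Hirip3 and Nasp. With DMSO the order of means was Ssrp1 (211 TPM), Daxx (34.7 TPM), Atrx (33.4 TPM), Asf1b (26.5 TPM), Chaf1a (24.1 TPM), Nasp (21.4 TPM), Hirip3 (18.3 and 23.8 TPM), Hira (17.7 TPM), Chaf1b (13.3 TPM) and Asf1a (11.4 TPM). There the overlapping neighbours were Daxx and Atrx, Asf1b and Chaf1a, Nasp and Hirip3, and Hirip3 and Hira. Hira thus held rank 4 with CX-5461 and rank 8 with DMSO while its own level was not called different. Asf1a per unit of Hira was 0.450 and 0.423 with CX-5461 and 0.639 and 0.648 with DMSO, and Daxx per unit of Atrx was 1.43 and 1.19 with CX-5461 and 1.15 and 0.937 with DMSO (for each, exact two-sided permutation p = 0.333, the smallest possible). Both Asf1a and Hira share exon bases with other genes, and the part of this in their ratio was not tested.

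Around these genes, 37 other histone chaperones and partners were described, and 16 fell (43.2%, against 8.21% of all genes tested) and 1 rose (2.70%, against 11.6%). Fewer were called lower without CX-5461 replicate 2 and without CX-5461 replicate 3, in this list and over all genes tested. Their median log2 difference was -0.29, against 0.07 over all genes tested. Those lower with the smallest adjusted p were Mcm2, Pcna, Dek and Hat1. Mcm2, a helicase subunit that also holds parental H3-H4, had 10.2 and 9.15 TPM with CX-5461 and 47.2 and 40.9 TPM with DMSO (log2 difference -2.08, adjusted p = 0.000591). Pcna, the sliding clamp that recruits CAF-1, had 52.1 and 46.5 TPM with CX-5461 and 148 and 155 TPM with DMSO (-1.60, adjusted p = 0.000618). Dek, a DNA-binding protein described as an H3.3 chaperone, had 39.1 and 41.5 TPM with CX-5461 and 102 and 113 TPM with DMSO (-1.39, adjusted p = 0.000959). Hat1, the acetyltransferase that marks new H4 and travels with NASP, had 12.0 and 13.3 TPM with CX-5461 and 35.6 and 33.0 TPM with DMSO (-1.37, adjusted p = 0.00155). In each of these 4 genes the groups were far apart. The gene that rose was Tspyl1, of the nucleosome assembly protein family, at 104 and 112 TPM with CX-5461 and 86.5 and 71.8 TPM with DMSO (0.45, adjusted p = 0.0447). It did not pass without CX-5461 replicate 2, CX-5461 replicate 3 or DMSO replicate 3, with no filter, or without the trend and robust options.

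Partners in complexes did not all follow the members. Rbbp4, the smallest CAF-1 subunit, which also serves in deacetylase and Polycomb complexes, averaged 63.4 ± 0.212 TPM with CX-5461 and 68.0 ± 10.4 TPM with DMSO (SD, n = 2 each, log2 difference -0.09, 95% interval -0.39 to 0.21) and did not pass, unlike Chaf1a and Chaf1b. Its paralog Rbbp7, named after its values were seen, fell (157 and 151 TPM with CX-5461 and 243 and 229 TPM with DMSO, log2 difference -0.62, adjusted p = 0.00633). The HIRA partners Ubn1 (-0.07), Ubn2 (0.11) and Cabin1 (-0.12) did not pass, with adjusted p of 0.654, 0.546 and 0.452, as was the case for Hira. Ipo4, the importin that brings H3-H4 with ASF1 into the nucleus, differed by -0.05 (95% interval -0.25 to 0.15, adjusted p = 0.672). Cdan1, codanin-1, which holds ASF1 in the cytoplasm, differed by -0.17 (95% interval -0.52 to 0.18, adjusted p = 0.437). Whether other genes of this list share exons with neighbours was not examined.

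**Figure D4:**
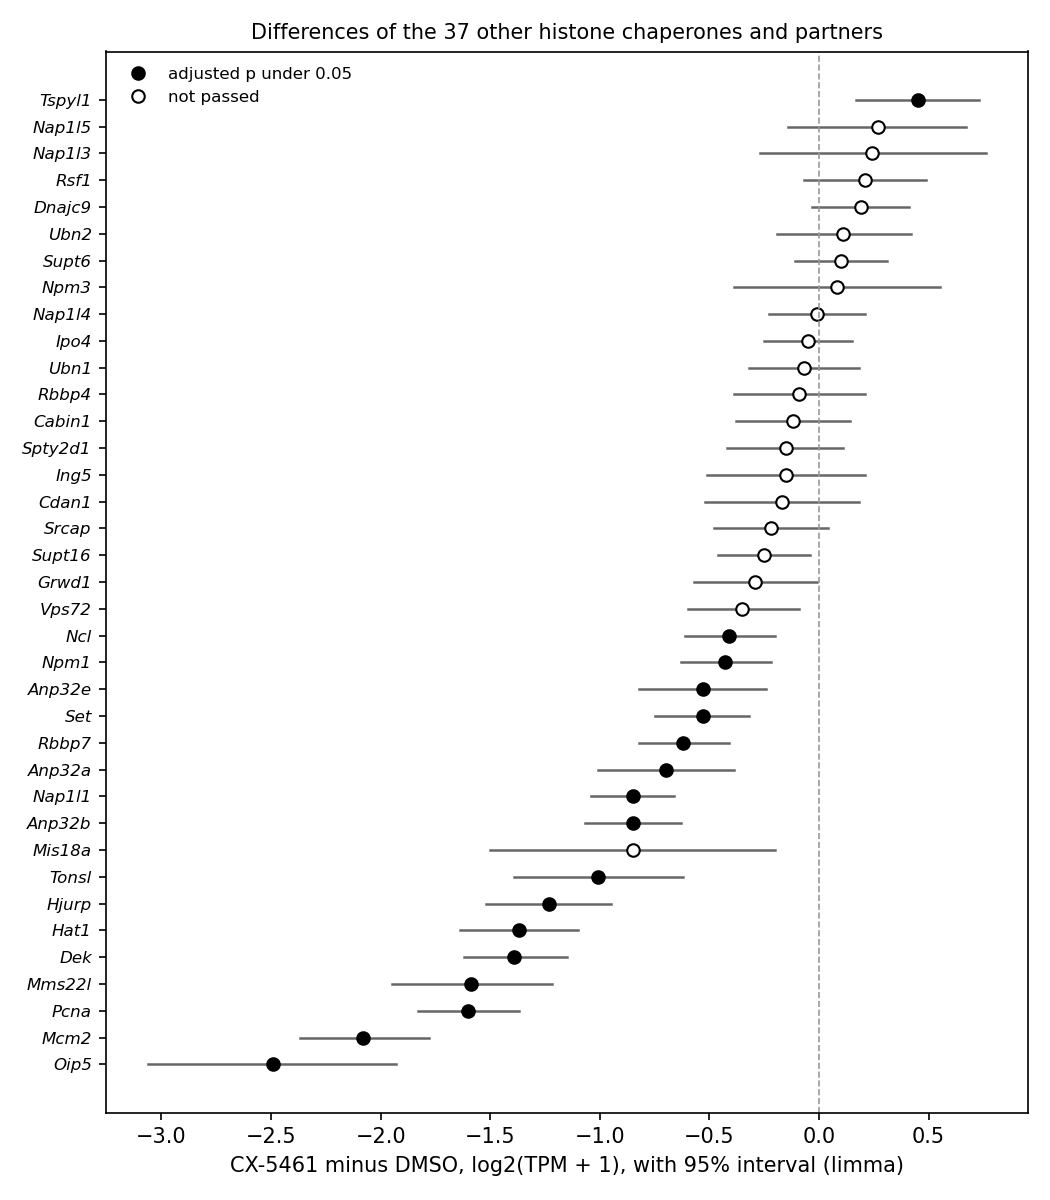
Log2(TPM + 1) differences, CX-5461 minus DMSO, for 37 other histone chaperones and partners, with 95% intervals from limma, filled where the adjusted p was under 0.05, sorted by difference. Filled points lie below 0 for 16 genes and above 0 for Tspyl1 alone.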

How the data were processed

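Per the labels, RNA was extracted with TRIzol, captured on poly(T) beads and sequenced as paired-end reads, and reads were cleaned on the BMKCloud platform. The authors deposited TPM values, 1 column per library, each summing to 1000000. Build mm10 comes from the submitters' processing notes. Which aligner, counter and annotation were used is not given in the sources used here. 0 columns were left unused, and columns were matched to samples by treatment and replicate number. Since TPM is relative, abundant genes that rise push others down.

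Coordinates and exon lengths are from GENCODE M21 (mm10) and promoters from RefSeq (GRCm38.p6), where all 10 members were matched by symbol. TPM times exon length fell on whole multiples of 1 value per library in 69.3% to 69.5% of values above 0 and under 20000 reads (within 0.02). This value was taken as 1 read of a pair and gave the read numbers, so reads of the same fragment can be counted apart. The rest were not whole, for a cause that was not tested. Of the members, Asf1a, Chaf1a, Hirip3, Hira and Ssrp1, which share exon bases with other genes, had non-whole read numbers in some libraries. Those of Asf1b, Chaf1b, Nasp, Daxx and Atrx, which share none, were within 0.02 of a whole in each library. Replicates differed beyond counting noise (chi-square per degree of freedom 9.15 for CX-5461 and 32.4 for DMSO). Counting the reads of a pair apart raises these values.

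Genes averaging 1 TPM or more were tested on log2(TPM + 1), a scale that understates changes of low genes, with limma 3.58.1 (R 4.3.3), its empirical Bayes step using the trend and robust options, without covariate, Benjamini-Hochberg adjusted over all 14621 genes. The fit had 2 residual and 3.75 prior degrees of freedom. The procedure was tested on simulated data with the same spread setting for all genes and both groups, where false calls exceeded the threshold. Ratios used an exact permutation test. In the list of other chaperones, 1 gene is not reported here and is left out of its counts. Members and lists were chosen with earlier results of these data known. All members were named; of the other chaperones, the 4 lowest adjusted p in each direction among those that passed and fixed complex partners. Alternatives were pseudocounts 0.1 and 5, no filter and 5 TPM, median-of-ratios, quantile and mitochondria-free scaling, limma without trend and robust, a replicate block, thresholds 0.01 and 0.1 and each library left out. After seeing the data, limma voom on the recovered reads was added. Python 3.11.15 was used.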

Additional observations from a re-analysis of the deposited data

How the results depend on the processing

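Over the 16 alternatives, the number of members lower with CX-5461 was 4 to 7 where no library was left out and 3 to 6 with 1 left out, and the number higher was 0 throughout. It was 3 without CX-5461 replicate 3, where Asf1b, Chaf1b and Nasp passed. Asf1b, Chaf1b and Nasp kept their direction and passed under each setting at 0.05. Asf1a passed under a filter of 5 TPM, under each of the 3 rescalings and with voom. Hira ran over -0.26 to 0.12 with 1 library left out and changed sign without DMSO replicate 2 (0.12). With the replicate block, 6 members were lower and no member's call changed. Same-numbered libraries did not deviate together (r = 0.03 over 14621 genes). With 1 deviation per group, this cannot exclude that the numbers pair the samples. Of all genes tested, 1694 were higher and 1201 lower. The number higher was 1051 with no filter, 1128 without trend and robust options, 548 at a threshold of 0.01 and 2623 at 0.1, and the number lower was 518 at 0.01 and 1986 with voom. With 1 library left out, these ran over 218 to 2067 higher and 337 to 891 lower. The rescalings moved the higher share of calls from 58.5% to between 49.4% and 51.4%, and the median of all genes by at most 0.06. Among other chaperones, 7 to 17 were lower and 0 to 2 higher with 1 library left out, 10 were lower at 0.01, and 0 were higher with no filter, without trend and robust options or at 0.01. With 1 library left out, the log2 ratio difference ran over -2.64 to -2.30 for Asf1b/Asf1a, 1.52 to 2.04 for Chaf1a/Chaf1b, -0.38 to -0.21 for Ssrp1/Supt16, 0.19 to 0.48 for Daxx/Atrx and -0.61 to -0.52 for Asf1a/Hira. In those fits the lone library of a group is assumed to vary like the other group. The cause of these changes was not tested, and 2 libraries per group limit all precision here.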

Other observations

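The genes named here were picked with their values in view. Of 3 genes that act in loading the centromeric H3 variant CENP-A, 2 fell. Hjurp, the CENP-A chaperone, averaged 16.7 ± 0.863 TPM with CX-5461 and 40.7 ± 4.60 TPM with DMSO (SD, n = 2 each, log2 difference -1.23, limma adjusted p = 0.00232). Oip5, which acts in licensing the loading, differed by -2.49 (adjusted p = 0.00219). Its levels were 0.822 and 0.335 TPM with CX-5461, both below 1 TPM, and 7.36 and 8.24 TPM with DMSO. Mis18a, which acts with Oip5, differed by -0.85 without passing (adjusted p = 0.0753). Cenpa, the cargo itself, averaged 1.18 ± 0.217 TPM with CX-5461 and 19.7 ± 5.44 TPM with DMSO (-3.22, adjusted p = 0.000983).

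Histone variants that the other chaperones carry differed among themselves. H3f3a and H3f3b, the H3.3 genes, averaged 211 ± 9.12 and 365 ± 3.85 TPM with CX-5461 and 168 ± 35.7 and 303 ± 33.1 TPM with DMSO, and neither passed (adjusted p = 0.174 and 0.113). H2az1, an H2A.Z gene, fell (126 ± 3.03 TPM with CX-5461 and 294 ± 77.7 TPM with DMSO, log2 difference -1.19, adjusted p = 0.0129), as did H2ax (-1.01, adjusted p = 0.00554). H2az2, the other H2A.Z gene, and Macroh2a1, a macroH2A gene, did not pass (-0.25 and -0.14, adjusted p = 0.37 and 0.41), and their groups overlapped. These levels were measured in the same libraries and fit as the chaperones.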
